A study of Mus musculus with 6 samples.

Results

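Transcription factor genes of the paraxial mesoderm, the somites and the skeletal muscle lineage were examined in embryoid bodies (EBs) before and after retinoic acid (RA). The members are 10 genes chosen by symbol from 19938 genes measured: Foxc1, Foxc2, Meox1, Meox2, Tcf15, Pax1, Uncx, Myf5, Myod1 and Myog. Each was represented by 1 probe set on the array, and all 10 were found. EBs are floating aggregates in which mouse embryonic stem (ES) cells leave the pluripotent state. They were grown from R1, an established mouse ES cell line, in medium lacking the cytokine Lif, at a density of 35000 cells per ml. Day 0 is the EB at 4 days of age, before RA, and day 3 and day 4 are EBs kept in 2 μM RA for that many days. Each day has 2 arrays (Affymetrix Mouse Gene 1.0 ST, 1 array per sample). No untreated EBs of matching age were analysed here, and an effect of RA therefore cannot be told apart from one of longer culture. Whether the 2 arrays of a day hold RNA of separate cultures is not stated in the labels, and the p-values measure only how far these arrays spread, which may be technical.

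Paraxial mesoderm is the tissue on either side of the neural tube that is cut into blocks, the somites. Msgn1 and Tbx6 mark the unsegmented tissue, Mesp2 and the Notch pathway set the boundaries, and Foxc1, Foxc2, Meox1 and Tcf15 act as the blocks form and become epithelial. Each somite then divides into sclerotome, which makes the axial skeleton and uses Pax1 and Uncx, and dermomyotome, which makes dermis and muscle. Muscle fate is set by the basic helix-loop-helix (bHLH) factors Myf5 and Myod1, and Myog drives the differentiation that follows. RA made by the somites is part of normal segmentation. Foxc1, Foxc2, Meox2 and Tcf15 are used outside the somites too, Foxc1 and Foxc2 for example in endothelium and kidney.

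The values are Robust Multichip Average (RMA) intensities on a log2 scale, so a difference of 1 is a 2-fold change. RMA understates differences between dim signals, and levels of different probe sets cannot be set against each other. Array medians ran from 6.69 to 6.85. The arrays of a day correlated at 0.999 or above across genes, and arrays of different days at 0.953 to 0.994. The EBs were checked against 6 genes of pluripotent cells, whose summed linear intensity was 5793 to 5976 at day 0, 709 to 773 at day 3 and 634 to 822 at day 4, and all 6 genes fell at both days. Among them, Zfp42 was dim on every day (means of 5.86, 5.23 and 5.43) and met the study's limits for undetectable genes, given below.

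The 10 genes did not move as a block. Foxc2, Foxc1 and Meox1 rose at least 2-fold, Meox2 rose slightly at a dim level, Tcf15 fell slightly, Pax1 dipped at day 3, and the call for Uncx, Myf5, Myod1 and Myog was not made in any comparison. At day 3, 6 of 10 passed the test against day 0 (4 rose, 2 fell), and at day 4, 5 of 10 passed (4 rose, 1 fell). The test was limma's. Its p-values were Benjamini-Hochberg adjusted across the 19938 genes, and 0.05 or below was called. The background is high: 51.9% of all genes were called at day 3 (23.8% higher, 28.1% lower) and 51.5% at day 4 (25.9% higher, 25.6% lower). The number of members called was therefore near that of any 10 genes. A call with a rise of at least 2-fold was less common, at 5.14% of all genes at day 3 and 5.82% at day 4, against 3 of 10 members at both days. The members were chosen with earlier results of these data known, so no conclusion is drawn from that difference. The median log2 change of the members was −0.11 at day 3 and 0.05 at day 4, beside −0.05 and −0.00 over all genes. The RNA is from whole EBs, so fewer cells of a type and less RNA per cell cannot be told apart.

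**Figure D1:**
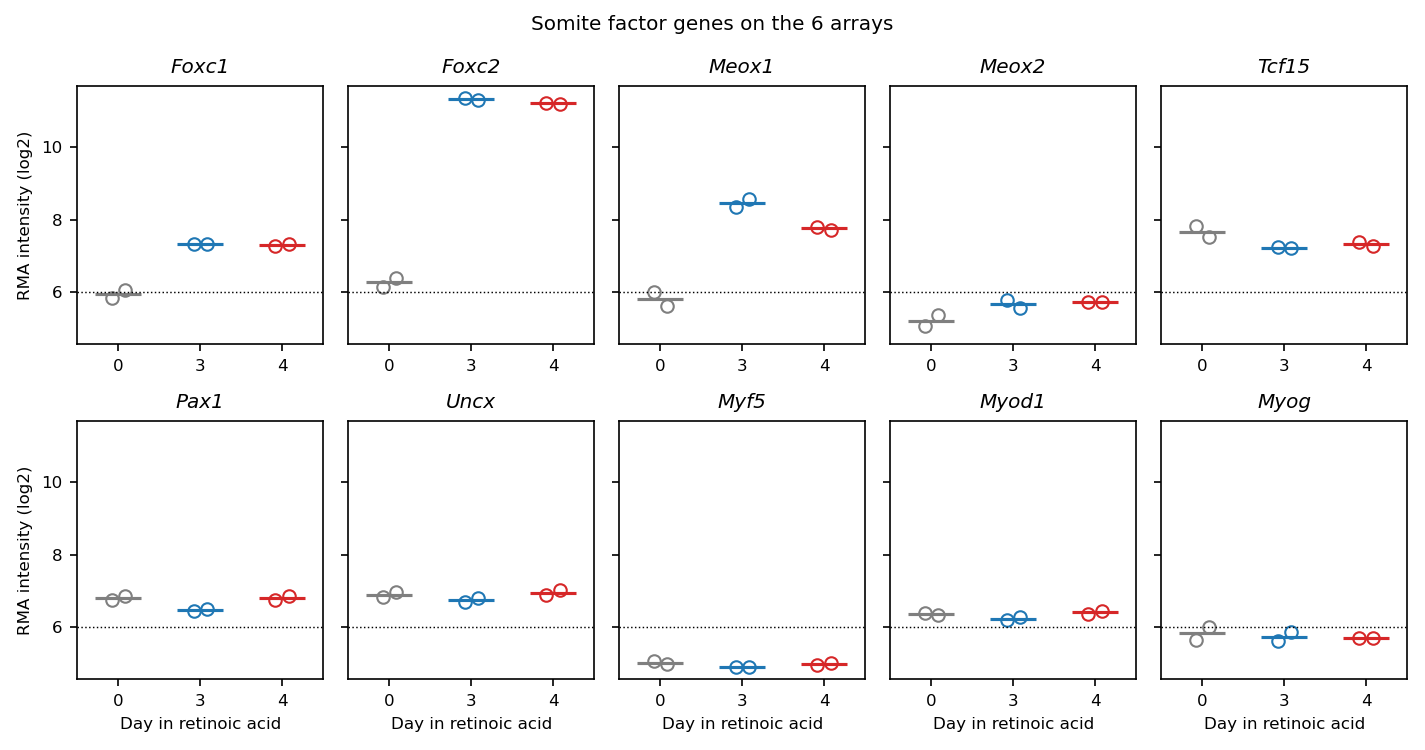
RMA intensity (log2) of the 10 genes, with an open circle for each of the 2 arrays of a day, a bar for their mean, and a dotted line at 6, the level below which the study's methods could call a gene undetectable. Foxc2 stood at 6.16 and 6.40 at day 0 and above 11 on all 4 later arrays, Foxc1 and Meox1 rose from about the dotted line, and Myf5 lay near 5 throughout.

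Foxc2 and Foxc1 encode forkhead transcription factors that act together in somite formation and in vessels, heart and kidney. Foxc2 (probe set 10576051) read 6.16 and 6.40 on the day 0 arrays, 11.35 and 11.30 at day 3, then 11.20 and 11.19 at day 4. The day 0 arrays lay about 5 units below all 4 later arrays, with no overlap. The log2 change was 5.04 (SE 0.08, adjusted p = 4.69e-08, limma) at day 3 and 4.91 (SE 0.08, adjusted p = 5.08e-08) at day 4, or 32.9-fold and 30.1-fold. Foxc2 had the 9th largest rise of all genes at day 3 and the 14th at day 4. The change from day 3 to day 4 was −0.13 and did not pass (adjusted p = 0.282, 95% interval −0.32 to 0.06).

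Foxc1 (probe set 10404407) rose by much less. Its arrays read 5.86 and 6.06 at day 0, 7.34 and 7.33 at day 3, then 7.29 and 7.34 at day 4. Both later days lay above day 0 on every array, and day 3 and day 4 overlapped. The log2 change was 1.38 (SE 0.07, adjusted p = 5.13e-06) at day 3 and 1.35 (SE 0.07, adjusted p = 4.84e-06) at day 4, about 2.6-fold each. Between the later days it was −0.02 (adjusted p = 0.847, 95% interval −0.20 to 0.15). Foxc1, Foxc2 and Meox1 all started near 6 (day 0 means of 5.96, 6.28 and 5.83), where RMA compresses differences. The folds of all of them may therefore be understated.

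Meox1 and Meox2 encode homeodomain factors of the early somite, with Meox2 also used in limb muscle and in vessels. Meox1 (probe set 10391504) read 6.02 and 5.63 at day 0, 8.36 and 8.56 at day 3, then 7.80 and 7.72 at day 4. The days did not overlap, with day 3 highest, day 4 between and day 0 lowest. It rose by 2.64 at day 3 (SE 0.13, adjusted p = 3.29e-06, 6.22-fold) and by 1.93 at day 4 (SE 0.13, adjusted p = 1.29e-05, 3.82-fold). Meox1 was the member with the largest drop over the last day, −0.70 (SE 0.13, adjusted p = 0.00798, 95% interval −1.01 to −0.40). That call was lost without day 4 replicate 2 (−0.67, adjusted p = 0.0541), and the direction was the same under each alternative tried.

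Meox2 (probe set 10395409) stayed dim. Its arrays read 5.08 and 5.37 at day 0, 5.79 and 5.57 at day 3, and 5.74 on both at day 4. The day 0 arrays were the lowest of the 6, and the later days overlapped. The log2 change was 0.46 at day 3 (SE 0.11, adjusted p = 0.0104) and 0.52 at day 4 (SE 0.11, adjusted p = 0.0055). Leaving out day 0 replicate 1 ended the day 3 call (0.31, adjusted p = 0.0502), and so did leaving out day 3 replicate 1 (0.35, adjusted p = 0.0653). The study's methods took a gene as undetectable where its intensity was below 6 and its SD below 0.3. Over the 6 arrays Meox2 had a mean of 5.55 and an SD of 0.28, inside both limits, as did 6023 of all genes (30.2%). Of those, 347 were, like Meox2, called against day 0 at both days.

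**Figure D2:**
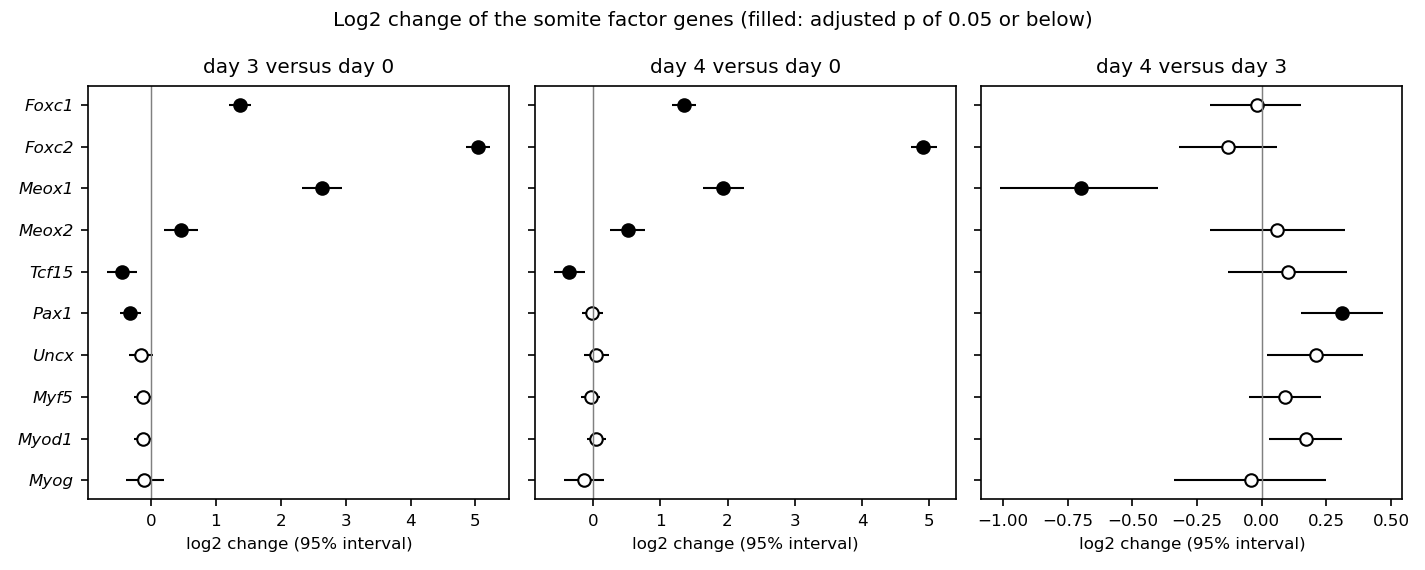
Log2 change of the 10 genes in the 3 comparisons, with the 95% interval from the moderated fit. Filled points passed at an adjusted p of 0.05 or below, and the right panel has a narrower axis. Foxc2 (5.04 and 4.91) stood far to the right against day 0, and only Meox1 (−0.70) and Pax1 (0.31) passed between day 4 and day 3.

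The start regions of a few members are shown because Foxc1 and Meox2 rose while Myog, the muscle differentiation gene, did not pass. The RefSeq promoter table (build GRCm38.p6) held 6 of the 10 members: Foxc1, Meox2, Pax1, Uncx, Myf5 and Myog. Each stretch is the 250 bases before the annotated start, on the gene's strand. Capitals mark, on either strand, the core hexamer of RA receptors and other nuclear receptors, searched as AGGTCA and with 3 spellings added after the sequences were seen, namely AGTTCA with an inner change, GGGTCA with an outer change and GGTTCA with both, as well as the E-box of bHLH factors, CANNTG.
Foxc1, chr13:31806396-31806645, plus strand: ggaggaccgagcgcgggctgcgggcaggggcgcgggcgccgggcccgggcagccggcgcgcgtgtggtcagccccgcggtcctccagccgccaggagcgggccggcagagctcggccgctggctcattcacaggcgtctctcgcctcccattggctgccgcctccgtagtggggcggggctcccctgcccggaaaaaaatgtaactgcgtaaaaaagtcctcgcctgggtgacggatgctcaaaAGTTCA
Meox2, chr12:37108290-37108539, plus strand: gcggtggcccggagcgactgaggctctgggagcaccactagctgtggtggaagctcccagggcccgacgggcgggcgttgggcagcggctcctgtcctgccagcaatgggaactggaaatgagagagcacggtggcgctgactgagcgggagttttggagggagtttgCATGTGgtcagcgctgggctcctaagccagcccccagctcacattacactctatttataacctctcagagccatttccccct
Myog, chr1:134289754-134290003, plus strand: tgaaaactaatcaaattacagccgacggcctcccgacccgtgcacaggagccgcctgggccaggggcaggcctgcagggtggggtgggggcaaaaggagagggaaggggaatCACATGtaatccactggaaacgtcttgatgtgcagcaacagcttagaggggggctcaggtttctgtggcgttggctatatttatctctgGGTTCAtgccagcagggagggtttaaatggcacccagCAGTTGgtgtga
In Foxc1 the search found AGTTCA starting 6 bases before the start, and no E-box. Meox2 held the E-box CATGTG at 82 bases before the start. Myog held GGTTCA at 49 bases and the E-boxes CACATG at 138 and CAGTTG at 12 bases before the start. No marked letters overlapped, and Pax1, Uncx and Myf5 held none of these motifs in the window. Of 32851 promoters, AGGTCA occurs in the same window in 14%, AGTTCA in 11.8%, GGGTCA in 11.6%, GGTTCA in 8.85% and CANNTG in 66.2%, so such matches are common. A match is a description of letters and not a bound site.

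Tcf15, Pax1 and Uncx belong to the formed somite. Tcf15 encodes the bHLH factor Paraxis, needed for somites to become epithelial, and is also expressed in early epiblast. It (probe set 10477069) read 7.82 and 7.53 at day 0, 7.25 and 7.21 at day 3, then 7.38 and 7.27 at day 4. The day 0 arrays were the highest, without overlap. It fell by 0.44 on the log2 scale at day 3 (SE 0.10, adjusted p = 0.00661) and by 0.35 at day 4 (SE 0.10, adjusted p = 0.0195). The day 4 call was lost without day 0 replicate 1 (−0.20, adjusted p = 0.0786), without day 4 replicate 2 (−0.29, adjusted p = 0.109) and with median centring of the arrays over all probe sets (−0.24, adjusted p = 0.0666).

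Pax1, a paired-box factor of the sclerotome (probe set 10476874), read 6.74 and 6.86 at day 0, 6.46 and 6.51 at day 3, then 6.74 and 6.85 at day 4. Both day 3 arrays lay below the other 4, and day 0 and day 4 overlapped. The log2 change was −0.32 at day 3 (SE 0.07, adjusted p = 0.00633), −0.01 at day 4 (adjusted p = 0.943, 95% interval −0.17 to 0.15) and 0.31 between day 4 and day 3 (SE 0.07, adjusted p = 0.016). Leaving out day 3 replicate 1 (0.28) or day 4 replicate 2 (0.25) ended the last call (adjusted p = 0.0908 each). Uncx, a homeodomain factor of the posterior sclerotome (probe set 10526956), read 6.83 and 6.97, then 6.69 and 6.80, then 6.88 and 7.03 at days 0, 3 and 4. Its day 3 arrays were the lowest, as for Pax1, but no comparison passed (−0.15, adjusted p = 0.151 at day 3, and 0.21, adjusted p = 0.0954 between day 4 and day 3).

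The myogenic factors stayed low on all 6 arrays. Myf5 (probe set 10372226) ranged from 4.90 to 5.08 over the arrays, with day means of 5.03, 4.91 and 5.00. Myog (probe set 10349993) ranged from 5.62 to 6.02, with day means of 5.84, 5.74 and 5.70. Myod1 (probe set 10553256) ranged from 6.21 to 6.46, with day means of 6.36, 6.24 and 6.41. Myf5 and Myog met the study's limits for undetectable genes, and Myod1, with a mean of 6.34 and an SD of 0.09, lay above the level limit with little spread. In limma 0 of these 3 genes passed in any comparison, and at an unadjusted p under 0.05 there was 1, Myod1 between day 4 and day 3 (0.17, adjusted p = 0.0768). For day 4 versus day 0 the 95% intervals of the log2 change were −0.18 to 0.11 for Myf5, −0.09 to 0.19 for Myod1 and −0.43 to 0.16 for Myog. A rise in array signal of the size seen for Foxc1 lay outside all of them. Because RMA understates differences between dim signals, the intervals cannot exclude such a rise in RNA at these levels.

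Scaling of the arrays moved some of the members with small changes past the threshold or back. Centring each array on the median of the 19938 genes tested moved the median gene to −0.15 against day 0 at both days, and centring on the median of all probe sets moved it to −0.07 at day 3 and 0.11 at day 4. With the first, 9 of 10 members were called at day 3 (4 rose, 5 fell), among them Uncx (−0.25), Myf5 (−0.22) and Myod1 (−0.22), and over all genes 12384 were called, 3889 higher and 8495 lower. In the comparison of day 4 with day 3, where 28.1% of all genes were called (15.8% higher, 12.2% lower), 2 of 10 members passed as deposited, 1 in each direction. Centring on all probe sets raised this to 5, with Pax1, Uncx, Myf5 and Myod1 higher and Meox1 lower, while over all genes it gave 10210 calls, 8829 higher and 1381 lower, a share close to that of the members. Foxc1, Foxc2, Meox1 and Meox2 rose at both days under each of the scalings tried, and the day 3 falls of Tcf15 and Pax1 passed under each of them too.

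Genes of the unsegmented paraxial mesoderm and of segmentation mostly moved the other way from Foxc2. Of 13 measured, 11 fell, 1 rose and 1 did not pass at day 3 (median −0.90). At day 4, 9 fell, 1 rose and 3 did not pass (median −0.50). The shares called were 92.3% and 76.9%, beside 51.9% and 51.5% of all genes. Some falls were small. Tbx6 (−0.40 at day 3 and −0.50 at day 4) lost its calls under 3 and 2 of 14 alternatives. Mesp2 (−0.32 and −0.42) lost them under 3 and 2, and Hes7 (−0.33 at day 3) under 2. Dll3, a Notch ligand of the segmentation clock, went from 8.71 at day 0 to 5.97 at day 3 and 6.16 at day 4 (−2.55, SE 0.10 at day 4). Msgn1, a bHLH factor of presomitic mesoderm, went from 9.84 to 7.29 and 7.32 (−2.52, SE 0.10), and Mesp1, an early mesoderm factor that the heart lineage also uses, from 7.92 to 5.35 and 5.43 (−2.49, SE 0.15). These 3 falls were the largest of the list at both days, with adjusted p-values of 6.88e-06 or below. The gene that rose was Epha4, a receptor at somite boundaries and in many other tissues, by 1.48 at day 3 and 0.37 at day 4. Hes7, the clock repressor, changed by 0.11 (adjusted p = 0.355) and Ripply2, a boundary factor, by 0.02 (adjusted p = 0.786) at day 4, and neither passed there.

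Genes of the somite compartments moved both ways. Of 17 measured, 5 rose, 4 fell and 8 did not pass at day 3 (median 0.00), and 7 rose, 2 fell and 8 did not pass at day 4 (median 0.13). Tbx18, a T-box factor of the anterior somite and also of the epicardium, rose from 5.90 to 9.24 and 8.63 (2.73 at day 4, SE 0.07). Scx, a tendon factor, stood at 6.99 at day 0 and 7.99 at day 3, and at day 4 had risen by 2.01 (SE 0.10), and Sox9, a cartilage factor with many other sites, from 9.13 to 10.42 and 10.46 (1.33, SE 0.06). The 2 that fell at day 4 were Six4 (−0.74) and the tendon homeobox gene Mkx (−0.62). The dermomyotome genes Pax3 (−0.03, adjusted p = 0.774) and Pax7 (−0.02, adjusted p = 0.89) did not pass at day 4. Nor did the sclerotome genes Pax9 (0.20, adjusted p = 0.1) and Nkx3-2 (0.13, adjusted p = 0.329), which were chosen after their values were seen. Pax3 stood between 6.12 and 6.18 in its day means, Pax7 between 6.52 and 6.64, and Pax9 was below detection by the study's limits.

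Downstream muscle genes were mostly dim. Of 24 measured, 14 met the limits for undetectable genes. At day 4, 3 rose, 7 fell and 14 did not pass, and at day 3, 3 rose, 5 fell and 16 did not pass (medians −0.01 and −0.09). The balance of directions depended on scaling: centring on all probe sets gave 6 that rose and 4 that fell at day 4, and centring on the tested genes 2 that rose and 13 that fell at day 3. The genes that rose were Mef2c (2.15, SE 0.08), a factor that heart and endothelium also use, the slow troponin gene Tnni1 (1.09), expressed in embryonic heart too, and the embryonic and atrial myosin light chain gene Myl4 (0.63). The largest falls were those of the slow and cardiac troponin gene Tnnc1 (−2.73, from 8.95 to 6.21), the fast troponin gene Tnnt3 (−1.14) and the actin genes Acta1 and Actc1 (both −1.10). Myf6, the remaining myogenic bHLH factor, had day means of 5.54, 5.47 and 5.58 (0.04 at day 4, adjusted p = 0.662), and the muscle creatine kinase gene Ckm changed by −0.05 (adjusted p = 0.716). Over the last day, 3 rose, Myl4 (0.35), Chrna1 (0.22) and Tnnt1 (0.22), and 0 fell in limma (5 higher and 0 lower at an unadjusted p under 0.05). Their calls were lost under 2, 4 and 10 of 14 alternatives, and Chrna1 and Tnnt1 met the limits for undetectable genes. The share called was 12.5%, beside 28.1% of all genes. With centring on all probe sets 14 of 24 rose, beside 8829 of all 19938 genes.

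Of 9 genes whose products bind the myogenic factors or limit them, 7 rose and 2 fell at day 3, and 6 rose, 0 fell and 3 did not pass at day 4 (medians 0.42 and 0.41). None met the limits for undetectable genes. The inhibitors had the largest rises at day 4: Mdfi, which holds myogenic factors in the cytoplasm, by 1.13, and Id3 and Id2, which lack a DNA-binding region and sequester the E protein partners, by 1.06 and 1.02. The E protein genes Tcf12 (0.62), Tcf3 (0.41) and Tcf4 (0.15) rose as well, and the call of Tcf4 was lost with centring on the tested genes and in 8 other alternatives. Id1 (−0.60) and Id4 (−0.25) fell at day 3, and neither passed at day 4 (adjusted p = 0.0823 and 0.409). At an unadjusted p under 0.05, 1 of the 9, Id1, was lower at day 4 (−0.13). The day 3 call of Id4 was lost without either day 0 array or without day 3 replicate 1, and that of Msc (0.15, adjusted p = 0.049) in 11 of 14 alternatives.

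**Figure D3:**
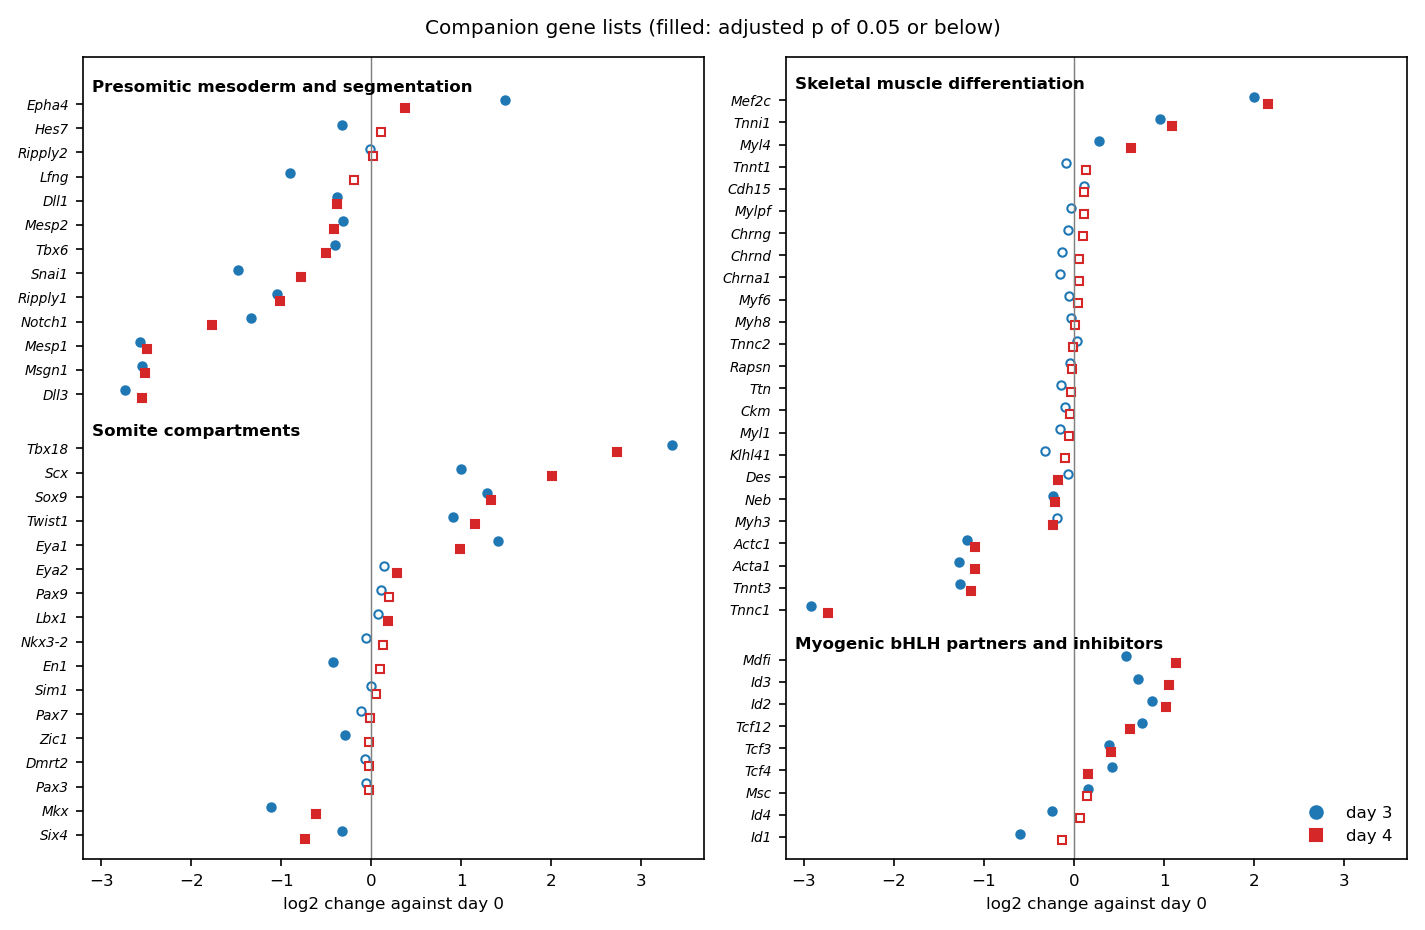
Log2 change against day 0 of the genes in the 4 related lists, with circles for day 3 and squares for day 4, filled where the adjusted p was 0.05 or below. Segmentation genes lay mostly left of 0 down to Dll3 (−2.74 at day 3), muscle genes clustered at 0 apart from Mef2c (2.15 at day 4), Tnni1 and Myl4 on the right and 4 genes below −1, and Tbx18 (3.34 at day 3) lay farthest right.

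Markers of other tissues that use Foxc1, Foxc2, Meox1, Meox2 or Tcf15 were measured beside them, and their part in the result was not tested. Summed linear intensity of the 10 members went from 843 to 846 at day 0 to 3620 to 3653 at day 3 and 3331 to 3344 at day 4. At the later days this sum was mostly Foxc2 (log2 means of 11.32 and 11.19), with Meox1 next (8.46 and 7.76). It therefore does not describe the members as a group, whose median log2 change was −0.11 and 0.05. The sums of marker genes likewise weigh bright probe sets most. Of 10 endothelial markers 7 rose and 1 fell at day 3, 7 rose and 2 fell at day 4, and their sum went from 6089 to 6412 at day 0 to 8788 to 9460 at day 3 and 7847 to 8018 at day 4. Among them the sialomucin gene Emcn rose by 4.75 at day 4, and the junction genes Pecam1 and Cdh5 rose by 0.56 and 0.22. The receptor genes that fell were Kdr, by 0.94 at day 3 and 1.04 at day 4, and Tek, by 1.14 at day 4. The call of Cdh5 was lost with centring on the tested genes and without day 0 replicate 2 or either day 4 array. Of 6 markers of intermediate mesoderm, which forms kidney and gonad, 3 rose and 1 fell at day 3, 2 rose and 1 fell at day 4, and the sum went from 2034 to 2055 to 6127 to 6774 and then 6511 to 6819. Those that rose at day 4 were Wt1 (4.52) and Osr1 (3.90), Gata3 fell by 1.80 at day 3 and by 1.68 at day 4, and the kidney genes Pax2 (0.16, adjusted p = 0.0726) and Pax8 (0.13, adjusted p = 0.155) did not pass at day 4. With centring on all probe sets 4 of the 6 rose at day 4, Pax2 and Pax8 among them.

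Of 9 lateral plate and heart markers, 6 rose and 3 fell at both days. Tbx5 (3.77 at day 4) led those that rose, and Tbx20 (−2.20 at day 3 and −3.32 at day 4) those that fell. Isl1 (−0.76) and Nkx2-5 (−0.42) also fell at day 4. The day 3 call of Isl1 (−0.27) was lost under 6 of 14 alternatives. The sum was 10134 to 10688 at day 0, 18666 to 18745 at day 3 and 18119 to 18394 at day 4. Of 8 mesenchyme markers 5 rose and 1, Col1a1, fell at both days (−0.42 and −0.16, the latter call lost under 9 of 14 alternatives). The rises were led by Postn (4.53 at day 4), and the sum was 2574 to 2711, then 5205 to 5327, then 5824 to 6190. Of 8 neural crest markers, 2 rose and 3 fell at day 3, 3 rose and 3 fell at day 4, and the sum was 2233 to 2423, then 3359 to 3536, then 3517 to 3762. Its defining gene Sox10 changed by 0.06 at day 4 (adjusted p = 0.585). Those that rose at day 4 were Ednrb (3.16), Snai2 (1.16) and Foxd3 (0.22). Those that fell were Tfap2a (−1.22), Erbb3 (−1.08) and Ets1 (−0.31). The day 4 call of Foxd3 was lost under 4 of 14 alternatives. Genes below the limits for detection in these lists were Lum in mesenchyme and Tfap2b in neural crest.

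The genes nearest in pattern were found for the members that changed at least 2-fold. Distance was the root mean square over the 6 arrays of differences between log2 values, each taken minus its gene's day 0 mean. Left out of the search and its counts were predicted genes, clone names, small RNA genes and genes named Olfr or Vmn. Genes annotated as other than protein-coding were left out too. For Foxc2 the nearest were Emcn (distance 0.17), the growth factor gene Ptn (0.18) and the matrix gene Ecm1 (0.20), and 7 of the genes searched lay within 0.25. Emcn changed by 4.81 and 4.75, Ptn by 4.78 and 5.07, and Ecm1 by 5.07 and 5.24 at days 3 and 4. For Meox1 they were Clvs2 (0.08), the actin nucleator gene Fmn2 (0.13) and Otogl (0.17), with 23 genes within 0.25. Each of these was higher at day 3 than at day 4, as Meox1 was. For Foxc1 they were Smim10l1, the mitochondrial dehydrogenase gene Aldh6a1 and the histone variant gene Macroh2a2 (0.06 each), with 306 genes within 0.25, so a rise and plateau of this size was common. Patterns were set by 3 days, and arrays of a day are not separate points.

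**Figure D4:**
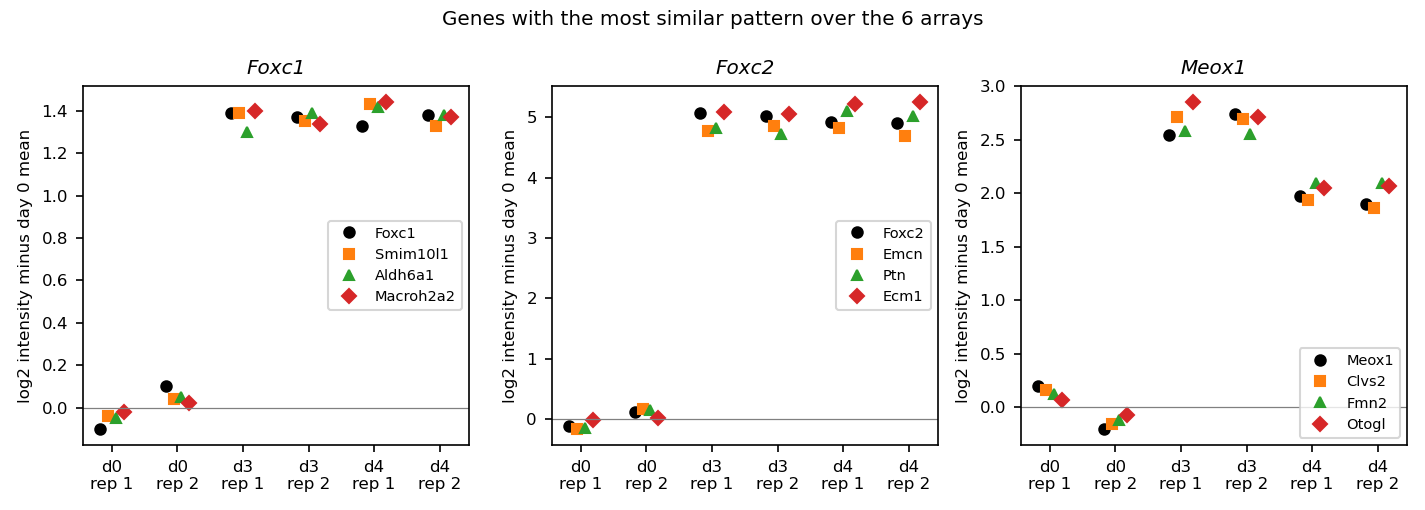
Log2 intensity minus the day 0 mean on each array (d, day; rep, replicate) for Foxc1, Foxc2 and Meox1 and the 3 genes nearest to each. Foxc1 and its neighbours lay near 1.4 on all 4 later arrays, Foxc2 and its neighbours near 5, and Meox1 and its neighbours stood higher at day 3 than at day 4.

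Position on the chromosome was looked at through the order of protein-coding genes in RefSeq (GRCm38.p6), a comparison chosen after the members' values were seen. Foxc1 and Foxc2 each lie beside other forkhead genes. Next to Foxc1, Foxf2 fell by 1.20 at day 3 and by 1.07 at day 4, and Foxq1 fell by 0.52 and 0.27, while Foxc1 rose. The day 4 call of Foxq1 was lost with centring on all probe sets and without day 0 replicate 1 or day 4 replicate 1. Next to Foxc2, Foxf1 rose by 0.44 and 0.37, Mthfsd by 0.39 and 0.30, and Foxl1 by 0.66 and 1.17, all far less than the 5.04 and 4.91 of Foxc2. Beside Meox1, the Ets factor gene Etv4 fell by 2.39 and 1.99 and Dusp3 by 1.13 and 1.06. Over the 37 measured genes that are the 2 nearest on either side of a member, 8 rose and 10 fell at day 3 and 9 rose and 8 fell at day 4, 48.6% and 45.9% called, near the share of all genes.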

How the data were processed

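RNA of EBs was hybridized to 6 Affymetrix Mouse Gene 1.0 ST arrays, 2 per day. The deposited values are log2 intensities, which the authors obtained by RMA in Partek (background correction, quantile normalization and summary per probe set). The software version for the arrays and the genome build are not given in the sources used here. The quantile step hides changes of total RNA per cell. Of 35557 probe sets, 23410 were in the platform annotation, 21789 with 1 symbol and 1621 with several, which were left out. The brightest probe set per gene gave 19938 genes, of which 999 had a choice.

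All 6 arrays entered 1 fit in limma 3.58.1 (R 4.3.3; lmFit, eBayes) with a mean per day, 3 residual and 4.07 prior degrees of freedom. Tests were two-sided. SDs of single genes and of the limits for undetectable genes are over all 6 arrays. The SD over the 2 arrays of a day had a median over genes of 0.0463 to 0.0495. Arrays have no read depth, so their number limits the precision. The fit was tested on simulated data. The genes singled out in the text were all 10 members and, per related list, up to 3 with the largest rise and fall at day 4 and up to 2 that did not pass. For each member changed at least 2-fold, the 3 genes nearest in pattern were added. The other genes named were chosen after their values were seen. The members and lists were chosen with earlier results of these data known. Listed genes without a probe set under their symbol alone were not analysed here.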

Additional observations from a re-analysis of the deposited data

How the results depend on the processing

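The rises of Foxc1, Foxc2 and Meox1 against day 0 passed under all 14 alternatives: Foxc2 changed by 4.92 to 5.16 at day 3 and 4.77 to 5.03 at day 4, Foxc1 by 1.28 to 1.48 and 1.21 to 1.46, and Meox1 by 2.44 to 2.83 and 1.74 to 2.13. Over all alternatives, 373 log2 changes of members kept direction and side of the threshold, 8 lost a call, 9 gained one, and 21 uncalled ones turned sign. Intensity close to background limits Meox2, Myf5 and Myog, which a filter on a mean of at least 6 removed. Centring on the tested genes was chosen after seeing the data.

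Leaving out 1 array at a time, with a lone array assumed to vary like the other groups, gave 8741 to 10212 calls over all genes at day 3, 9073 to 9973 at day 4, and 2728 to 5276 between day 4 and day 3. Among the members it gave 5 to 6 calls, then 4 to 5 and then 0 to 2, with 0 without day 4 replicate 2 and 1 without day 3 replicate 1. With centring on all probe sets 10210 genes and 5 members were called between day 4 and day 3, 8829 genes higher and 1381 lower, against 3156 and 2437 as deposited. Against day 0 it gave 7132 higher and 3915 lower genes at day 4, and centring on the tested genes gave 3889 and 8495 at day 3, 3781 and 8521 at day 4, then 2268 and 3081 between the later days, against 4749 and 5596 at day 3 and 5154 and 5106 at day 4 as deposited. The cause was not tested.

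Calls between day 4 and day 3 were gained with centring on all probe sets for Uncx (0.34), Myf5 (0.22) and Myod1 (0.30), with the filter for Myod1 (0.17), and with the replicate block for Uncx (0.21). Against day 0, Myf5 gained one with centring on the tested genes at day 4 (−0.18).

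Values that turned sign were uncalled in both settings. At day 3 Myog ranged from −0.27 to 0.08 over the arrays left out (0.03 without day 3 replicate 1). At day 4 Pax1 gave 0.10 with centring on all probe sets, 0.02 with cyclic loess, and −0.07 to 0.06 over the arrays left out (0.05 without day 4 replicate 1). Uncx gave −0.02 to 0.13 over the arrays left out and −0.09 with centring on the tested genes, where Myod1 gave −0.10. Myf5 gave 0.07 with centring on all probe sets, 0.00 with cyclic loess, and −0.08 to 0.01 over the arrays left out, and Myog gave −0.31 to 0.04 over them. Between the later days, centring on all probe sets gave 0.11 for Foxc1, 0.00 for Foxc2 and 0.09 for Myog. Foxc1 gave 0.00 without day 4 replicate 1, Meox2 −0.05 without day 3 replicate 2, and Myog −0.16 to 0.08 over the arrays left out.

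The replicate numbers were not shown to pair the arrays, with correlations of deviations of 0.03, 0.06 and 0.08 between days. A replicate block gave 10359, 10251 and 5469 calls over all genes and 6, 5 and 3 among the members.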
